A study of Mus musculus with 8 samples.

Results

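Proneural, Notch and neural progenitor genes were followed in mouse embryonic stem cells through 9 members, Neurog2, Neurog3, Dll1, Hes1, Hes5, Hes6, Hey1, Nes and Tubb3. They were found on the array as the non-control probes whose RefSeq accession maps to these symbols, which gave 9 probes among 55681, a single probe for each gene, and 8 of the genes could be tested. They were chosen by their measured processed signals over the 4 groups of this series. Total RNA was hybridised to 8 arrays of a single colour (Agilent), with 2 arrays per group. LIF, which supports the undifferentiated state, and 250 nM PD173074, which blocks FGF receptors, were in the medium of all groups. One group got nothing more (untreated). Of the others, one received 250 nM 4OHT (4-hydroxytamoxifen) over 8 h (4OHT 8h), one over 10 h (4OHT 10h), and one over 8 h followed by 2 h in which the MEK inhibitor PD0325901 was present at 1 µM (4OHT 8h then PD0325901 2h). 4OHT activates proteins fused to a modified oestrogen receptor. The labels name no such protein, clone or strain, and leave unsaid whether 4OHT was still present during the last 2 h. The array titles read Pulse-Chase. If 4OHT was taken away at 8 h, its removal and PD0325901 cannot be told apart in that group. In what follows, "with the inhibitor" only names that group. The title of the series speaks of Erk, which MEK phosphorylates, and the PD0325901 group was harvested 10 h after 4OHT began, so 4OHT 10h is its time-matched comparison. The design text describes the arrays of a group as biological replicates.

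Notch is a receptor that is cut when a DLL or JAG ligand on a neighbouring cell binds it, and its inner part then joins RBPJ on DNA and switches on repressors of the HES and HEY families. Those repressors hold down proneural factors such as NEUROG2 and NEUROG3, which pair with E proteins on E-box DNA and switch on ligand genes such as Dll1. In neural tissue this loop keeps some cells as progenitors, which carry nestin, while others become neurons, which carry beta-III tubulin. Neurog3 is best known as the factor that starts the endocrine cells of the pancreas.

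Levels are given as log2 of the processed signal relative to the 75th percentile of the same array, so 0 is the signal of a spot at that percentile. Levels of different probes cannot be set against each other. Differences are between group means, ± the standard error (SE) of a limma fit over all 8 arrays (n = 2 per group). A gene is said to be called where its Benjamini-Hochberg adjusted p over all 22693 genes and unnamed features tested was under 0.05. The members were named with results of these arrays known, so their values and calls are a description and no p is given for them. In total RNA, a change in the number of cells with a transcript and a change in its amount per cell cannot be told apart. Arrays of replicate 1 had 36889 to 37789 spots well above background and those of replicate 2 had 30218 to 31433, and no spot was saturated. All 12 embryonic stem cell markers were well above background on all 8 arrays, but some moved: 2 rose and 2 fell at 8 h, 2 rose and 3 fell at 10 h, and 1 rose and 3 fell with the inhibitor against 10 h. Nanog differed from untreated by -2.59 ± 0.19 at 8 h and -3.10 ± 0.19 at 10 h and rose by 1.66 ± 0.19 with the inhibitor (limma adjusted p = 0.000886, 0.000427 and 0.00996). Klf4 fell by 1.46 ± 0.32 at 8 h (0.0281), while Utf1 and Dppa4 rose by 0.93 ± 0.08 and 0.95 ± 0.08 (0.00141 and 0.00127).

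After 8 h of 4OHT, Neurog3, Dll1, Hey1 and Tubb3 fell and Nes rose, so 5 of the 8 members tested were called (1 up, 4 down), where 21.7% of all genes and features tested were called (10.3% up, 11.5% down). After 10 h Neurog3, Hes5, Hey1 and Tubb3 were lower and Nes was higher, again 5 of 8 (1 up, 4 down) against 27.9% of all (13.1% up, 14.8% down). With PD0325901 for the last 2 h, Neurog3, Hes5 and Tubb3 were higher than at 4OHT 10h, 3 of 8 called (3 up, 0 down) against 6.12% of all (3.25% up, 2.87% down). Neurog2 was not tested. The median difference of the 8 members was -0.73 at 8 h, -0.94 at 10 h and 0.84 with the inhibitor, beside -0.04, -0.05 and -0.04 over all genes and features. Both 4OHT comparisons use the same untreated arrays, and the inhibitor comparison uses the 4OHT 10h arrays.

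**Figure D1:**
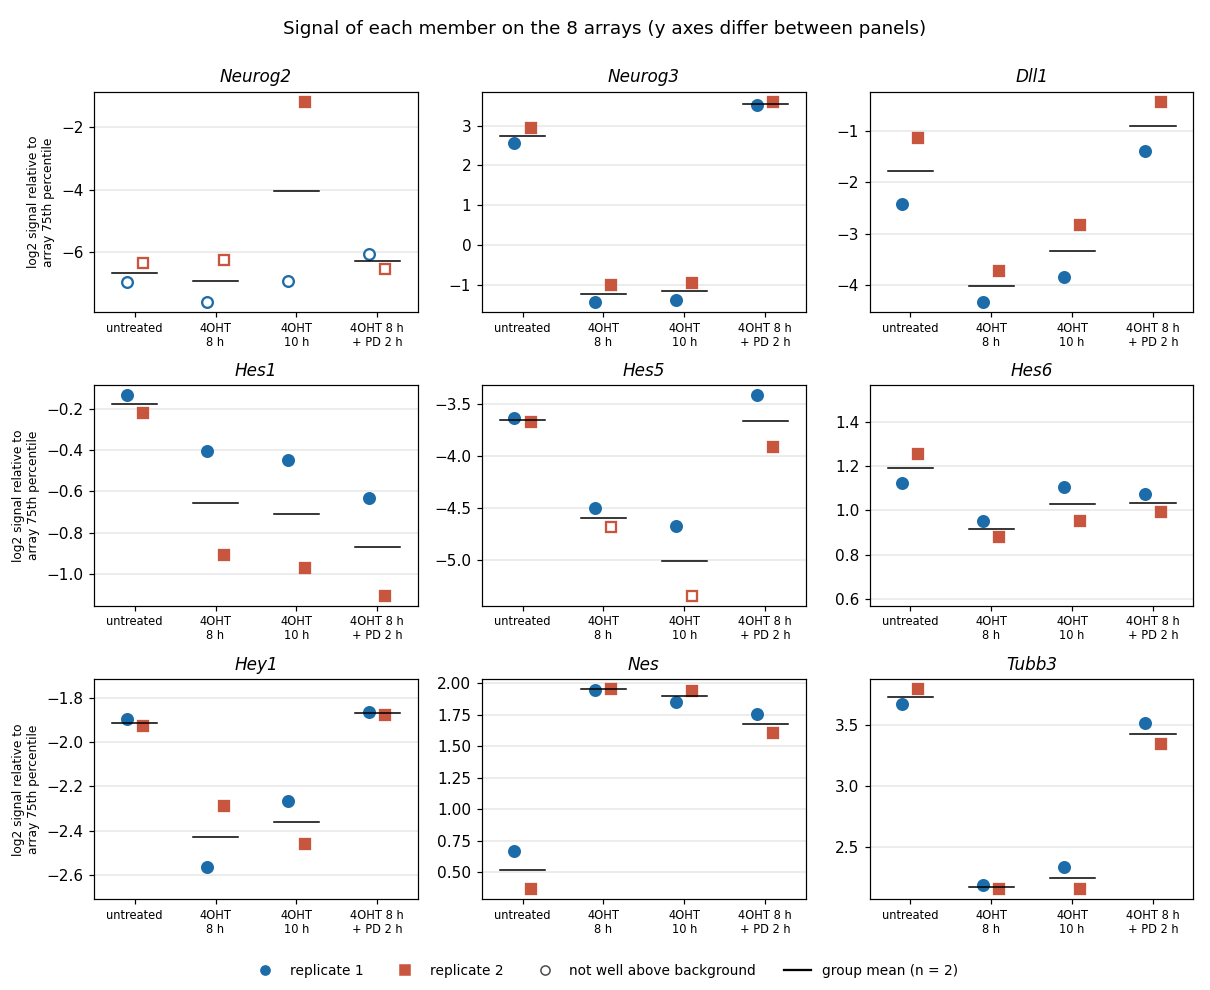
Level of each of the 9 members on each array (log2 of the signal relative to the array's 75th percentile) in the 4 groups, with circles for replicate 1, squares for replicate 2, open symbols for spots not well above background and lines for the mean of 2 arrays. Neurog3 lies between 2.56 and 3.61 on the untreated and PD0325901 arrays and between -1.44 and -0.96 on the 4OHT arrays, while Nes lies lowest on the untreated arrays.

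The 4 members that were lower with 4OHT and at least 0.93 higher with PD0325901 than at 4OHT 8h and 4OHT 10h are shown here by the 250 bases before their RefSeq transcription starts (build GRCm38.p6), since these stretches are where proneural and Notch factors would meet DNA next to the start. The cut of 0.93 was set with the values known. Not all of these differences were called, the exceptions being Dll1 in both comparisons with 4OHT 10h and Hes5 in both with 4OHT 8h. Entries were at hand for 7 of the 9 members (9 starts), and Hes1 and Hey1 had none. Capitals mark the E-box CANNTG, the DNA word of proneural and other bHLH factors, and TGGGAA or its complement TTCCCA, the core word of RBPJ, searched on both strands.
Neurog3 (chr10:62132840-62133089, plus strand): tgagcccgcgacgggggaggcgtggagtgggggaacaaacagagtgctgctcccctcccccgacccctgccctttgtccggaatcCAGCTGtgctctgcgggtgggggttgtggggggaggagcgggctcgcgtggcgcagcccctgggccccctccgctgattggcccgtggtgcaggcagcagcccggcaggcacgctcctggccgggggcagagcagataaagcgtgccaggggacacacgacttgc
Dll1, start 1 (chr17:15375824-15376073, minus strand): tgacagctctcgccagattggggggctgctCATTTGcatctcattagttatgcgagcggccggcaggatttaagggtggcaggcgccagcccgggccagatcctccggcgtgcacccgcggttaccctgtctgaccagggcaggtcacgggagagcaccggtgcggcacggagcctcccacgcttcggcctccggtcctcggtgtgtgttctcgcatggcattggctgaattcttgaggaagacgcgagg
Dll1, start 2 (chr17:15376933-15377182, minus strand): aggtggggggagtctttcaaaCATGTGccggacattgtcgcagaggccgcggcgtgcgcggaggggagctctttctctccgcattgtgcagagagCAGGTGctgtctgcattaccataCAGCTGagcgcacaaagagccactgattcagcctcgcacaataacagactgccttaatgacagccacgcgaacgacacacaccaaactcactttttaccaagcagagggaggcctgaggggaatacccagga
Hes5 (chr4:154960673-154960922, plus strand): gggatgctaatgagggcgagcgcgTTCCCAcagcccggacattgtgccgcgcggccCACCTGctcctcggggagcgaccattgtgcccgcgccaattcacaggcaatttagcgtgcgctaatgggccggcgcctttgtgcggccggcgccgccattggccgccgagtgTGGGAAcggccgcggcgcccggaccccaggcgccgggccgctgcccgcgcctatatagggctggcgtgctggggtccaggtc
Tubb3 (chr8:123411303-123411552, plus strand): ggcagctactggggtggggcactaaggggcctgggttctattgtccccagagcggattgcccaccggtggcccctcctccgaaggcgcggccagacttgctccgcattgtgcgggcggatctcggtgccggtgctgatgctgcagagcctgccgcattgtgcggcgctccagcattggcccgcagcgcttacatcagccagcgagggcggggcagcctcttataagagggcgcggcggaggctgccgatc
Neurog3 had 1 E-box, beginning 165 bases before the start, and no RBPJ core. Dll1 had 1 E-box before one start, at 220 bases, and 3 before the other, at 229, 155 and 132 bases. Hes5 had RBPJ cores at 226 and 82 bases, on opposite strands, and 1 E-box at 194 bases. Tubb3 had neither word. Of the members with entries that are not shown, Neurog2 and Nes had neither word. Hes6, which had the smallest differences, had as many E-boxes as Dll1. They were 1 before one start, at 150 bases, and 3 before the other, at 220, 171 and 164 bases, with no RBPJ core. The word CACNAG (N-box) was also searched and was found only before a Hes6 start, at 237 bases. It was in 36.7% of all promoters. Among 32851 promoters of the table, 66.2% held an E-box in the same window, 12.2% held 3 or more, 21.6% held an RBPJ core and 2.77% held 2 or more. The words did not overlap each other in the stretches shown. A match is a match of letters and no binding was measured.

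Neurog2, a proneural factor of the nervous system, gave no usable level. Its spot was well above background on 1 of 8 arrays, 4OHT 10h replicate 2, with a processed signal of 144.8, and the other 7 arrays gave 1.75 to 4.80. The partner array of the same group read 2.73, so the high value was not repeated.

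Neurog3 had the widest span of the 8 members tested. Its level was 2.56 and 2.94 on the untreated arrays, -1.44 and -1.02 at 4OHT 8h, -1.38 and -0.96 at 4OHT 10h, and 3.51 and 3.61 with PD0325901 (replicate 1, then replicate 2, here and throughout). Both 4OHT groups lay far under the other two, and the arrays of the 4 groups did not overlap except between 8 h and 10 h. The difference from untreated was -3.98 ± 0.22 at 8 h (15.8-fold lower) and -3.92 ± 0.22 at 10 h (15.1-fold lower). With the inhibitor it was 4.73 ± 0.22 higher than at 4OHT 10h (26.5-fold) and 4.79 ± 0.22 higher than at 4OHT 8h (27.6-fold). These calls were kept under each of 17 alternatives. Neurog3 was 0.81 ± 0.22 above its untreated level with the inhibitor, both arrays above both untreated ones. That difference was not called, and was called under 4 of 17 alternatives (median centring, normexp, the trended robust prior and the replicate block). Replicate 1 was lower than replicate 2 in all 4 groups, by 0.10 to 0.42. Of 10 pancreatic endocrine markers, 4 to 6 were well above background on each array, and Pax4, Rfx6 and Gcg were so on no array. Nkx2-2, Ins1, Ins2 and Chga were so on all 8. Of 5 tested, Pdx1 and Ins1 were called higher with 4OHT, where Neurog3 was low, by 1.80 ± 0.18 and 0.74 ± 0.12 at 8 h (limma adjusted p = 0.00218 and 0.01). Pdx1 then fell by 1.68 ± 0.18 with the inhibitor against 10 h (0.00783). It was well above background on 0 of 2 untreated and 1 of 2 PD0325901 arrays, so the sizes of its differences are uncertain.

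Dll1, the Notch ligand that proneural factors switch on, moved the same way with more spread. Its 10 spots averaged -2.42 and -1.14 in untreated cells, -4.34 and -3.73 at 4OHT 8h, -3.85 and -2.84 at 4OHT 10h, and -1.40 and -0.43 with PD0325901. Both untreated arrays and both PD0325901 arrays lay above all 4 4OHT arrays, but untreated and PD0325901 overlapped. Replicate 1 was lower than replicate 2 in all 4 groups, by 0.61 to 1.28, while the SD between the 10 spots of an array was 0.07 to 0.45. The difference was -2.25 ± 0.59 at 8 h (4.75-fold lower, called), -1.56 ± 0.59 at 10 h (not called), 2.44 ± 0.59 with the inhibitor against 10 h (5.41-fold higher, not called) and 3.12 ± 0.59 against 8 h (8.70-fold higher, called). With the replicate number as a block the 10 h fall and the rise against 10 h were called too. Within replicate 1 the differences at 8 h, at 10 h and with the inhibitor against 10 h were -1.91, -1.43 and 2.45, and within replicate 2 they were -2.58, -1.70 and 2.42. The call at 8 h ended when any single array was left out, and with normexp background correction the difference became -0.93 and was not called. The call against 8 h ended under 8 of 17 alternatives, 6 of them omissions of a single 4OHT or PD0325901 array, and its lowest value was 1.55.

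Hes5, a repressor that Notch switches on, was dim. Its level was -3.63 and -3.68 in untreated cells, -4.51 and -4.68 at 4OHT 8h, -4.68 and -5.35 at 4OHT 10h, and -3.42 and -3.91 with PD0325901. The 4OHT arrays lay under the untreated and PD0325901 arrays, which overlapped, and replicate 2 was not well above background at 4OHT 8h and 4OHT 10h. The difference was -0.94 ± 0.26 at 8 h (not called), -1.36 ± 0.26 at 10 h (called) and 1.35 ± 0.26 with the inhibitor against 10 h (called). The 8 h difference was called under 5 of 17 alternatives. These were normexp, only the groups compared, the replicate block and leaving out either 4OHT 10h array. The 10 h call ended without either untreated array, and the inhibitor call ended under 12 of 17 alternatives. Normexp correction gave -0.29 at 10 h and 0.42 with the inhibitor.

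Hey1, another Notch-driven repressor, showed small differences of the same signs. Its level was -1.90 and -1.93 in untreated cells, -2.57 and -2.29 at 4OHT 8h, -2.27 and -2.46 at 4OHT 10h, and -1.86 and -1.87 with PD0325901. The 4OHT arrays lay under the other 4 without overlap. The differences were -0.52 ± 0.12 at 8 h and -0.45 ± 0.12 at 10 h, both called, and 0.50 ± 0.12 with the inhibitor against 10 h, not called. The 8 h call ended under 10 of 17 alternatives and the 10 h call under 12, among them median centring and quantile normalization.

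Hes1 is a HES repressor driven by Notch and by other signals. Its level was -0.14 and -0.22 in untreated cells, -0.40 and -0.91 at 4OHT 8h, -0.45 and -0.97 at 4OHT 10h, and -0.63 and -1.11 with PD0325901. Untreated arrays lay above all others, the 3 treated groups overlapped, and replicate 1 was higher than replicate 2 in all 4 groups. The differences from untreated, -0.48 ± 0.26, -0.53 ± 0.26 and -0.69 ± 0.26 in the same order, were not called, and all 3 were called with the replicate block. The inhibitor against 10 h gave -0.16 ± 0.26.

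Hes6, which counters HES1 and favours neuronal differentiation, had the smallest span. Its level was 1.13 and 1.26 in untreated cells, 0.95 and 0.88 at 4OHT 8h, 1.11 and 0.95 at 4OHT 10h, and 1.07 and 0.99 with PD0325901. The differences were -0.28 ± 0.09 at 8 h, -0.16 ± 0.09 at 10 h and 0.01 ± 0.09 with the inhibitor against 10 h, and none was called. The 8 h difference stayed negative under all 17 alternatives and was called under 1 of them, normexp correction. With arrays centred on their medians the 10 h difference was 0.03 and the inhibitor difference -0.07, so Hes6 has no settled sign there.

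Nes encodes nestin, an intermediate filament of neural progenitors and of several other dividing cells. With 4OHT it went the opposite way from Neurog3, but with the inhibitor it changed little. Its level was 0.67 and 0.37 in untreated cells, 1.95 and 1.95 at 4OHT 8h, 1.85 and 1.94 at 4OHT 10h, and 1.75 and 1.61 with PD0325901. All 6 treated arrays lay above both untreated arrays. The difference was 1.43 ± 0.12 at 8 h (2.70-fold higher) and 1.38 ± 0.12 at 10 h (2.60-fold higher). The inhibitor left Nes 0.21 ± 0.12 under 4OHT 10h, not called, and 1.16 ± 0.12 above untreated cells (2.24-fold), called. The calls against untreated cells were kept under each of 17 alternatives.

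Tubb3 encodes beta-III tubulin, a subunit of neuronal microtubules. Its level was 3.67 and 3.79 in untreated cells, 2.19 and 2.16 at 4OHT 8h, 2.34 and 2.16 at 4OHT 10h, and 3.51 and 3.35 with PD0325901. The order untreated, PD0325901, 4OHT held with no overlap, and the 4OHT groups overlapped. The difference was -1.56 ± 0.10 at 8 h (2.94-fold lower), -1.48 ± 0.10 at 10 h (2.80-fold lower) and 1.18 ± 0.10 with the inhibitor against 10 h (2.27-fold higher). The last call ended when only the 2 groups compared entered the fit, and the others were kept under each of 17 alternatives. With the inhibitor Tubb3 was 0.30 ± 0.10 under its untreated level, not called.

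**Figure D2:**
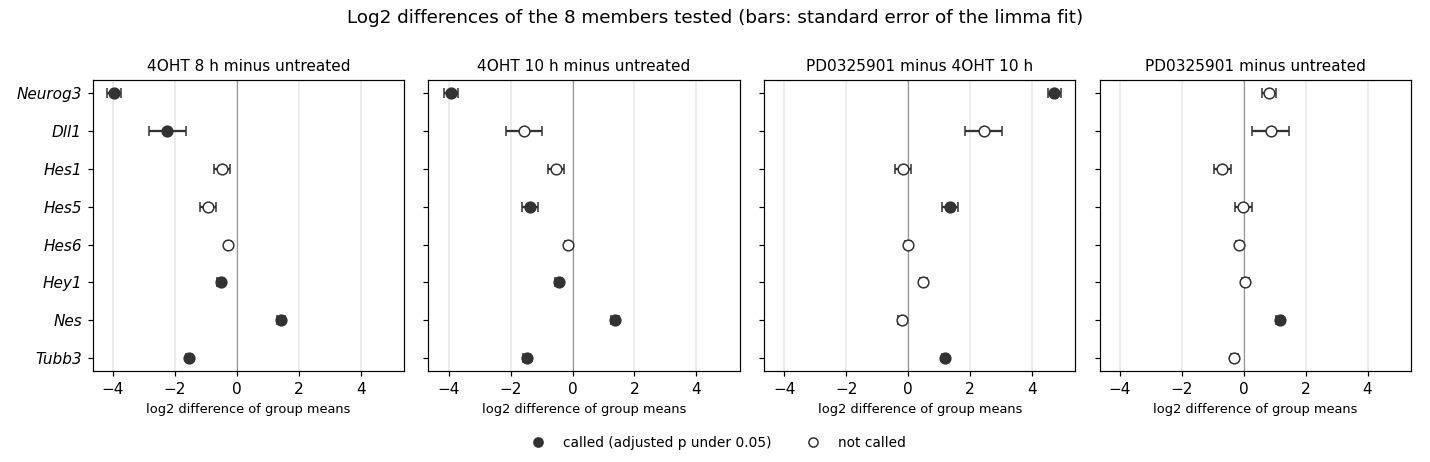
Differences of the 8 members tested (log2, group mean minus group mean) in 4 comparisons, with bars for the standard error of the limma fit (n = 2 per group) and filled points where the fit called the gene. Neurog3, Dll1, Hes5, Hey1 and Tubb3 lie left of 0 with 4OHT and right of 0 for PD0325901 against 4OHT 10h, while Nes is at 1.43 and 1.38 with 4OHT and at 1.16 for PD0325901 against untreated cells.

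Against untreated cells, PD0325901 after 4OHT left 1 of 8 members called, Nes (1 up, 0 down), where 15.8% of all were called (7.05% up, 8.79% down). With the replicate block 4 members were called, Neurog3, Dll1 and Nes higher and Hes1 lower, while calls over all rose from 3594 to 6283. Against 4OHT 8h, 3 of 8 were called (Neurog3, Dll1 and Tubb3, 3 up, 0 down), where 6.52% of all were called (3.41% up, 3.11% down). Hes5 and Hey1 joined them with the block, while calls over all rose from 1479 to 3184. Between 4OHT 8h and 4OHT 10h the limma fit called 0 of the 8 members and 0 (0%) of 22692 genes and features, of which 1501 had an unadjusted p under 0.05. The member differences there ran from -0.42 (Hes5) to 0.69 (Dll1). Arrays of the groups did not overlap for 8 of 8 members at 8 h and at 10 h and for 6 of 8 with the inhibitor against 10 h, beside 63.7%, 68.7% and 52.2% of all genes and features. For PD0325901 against 4OHT 8h it was 7 of 8 (52.5% of all), against untreated 6 of 8 (60.2%), and for 4OHT 10h against 4OHT 8h 1 of 8 (38.7%).

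**Figure D3:**
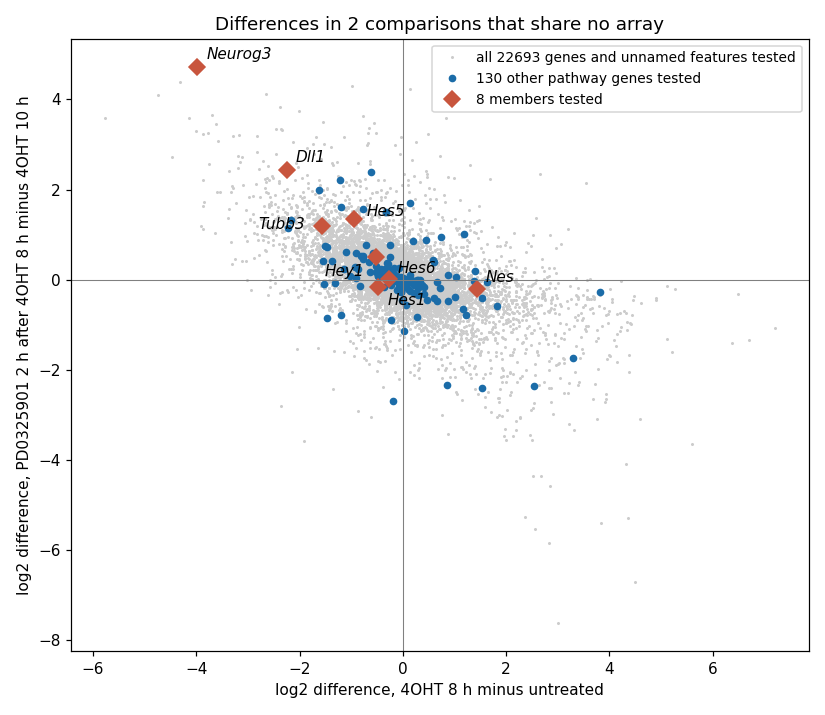
Difference of each gene for 4OHT 8h minus untreated (x axis, log2) against PD0325901 after 4OHT minus 4OHT 10h (y axis, log2), which share no array. Grey points are all 22693 genes and features, blue points the 130 other pathway genes tested and diamonds the 8 members. Neurog3 lies at -3.98 and 4.73, Dll1 at -2.25 and 2.44, Tubb3 at -1.56 and 1.18, and Nes at 1.43 and -0.21.

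The wider pathway was read from 10 lists of other genes, 164 in all, of which 130 were tested. At 8 h 39 were called (16 up, 23 down, 30.0% of those tested), at 10 h 52 (24 up, 28 down, 40.0%) and with the inhibitor against 10 h 15 (8 up, 7 down, 11.5%), beside the 21.7%, 27.9% and 6.12% of all genes and features. With the replicate block the last count was 35 (21 up, 14 down), while calls over all genes and features rose from 1389 to 2821. Median centring, which moved the median of all genes and features at 10 h from -0.05 to 0.14, turned the split to 23 up and 20 down at 8 h, 35 up and 20 down at 10 h, and 4 up and 8 down with the inhibitor. Over all genes and features the split at 8 h was 2329 up and 2603 down, and 3038 up and 1512 down with median centring. The adjusted p-values that follow are from the limma fit.

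Of the 10 Notch receptors and other ligands tested, 1 rose and 4 fell at 8 h, 2 rose and 4 fell at 10 h, and 0 were called with the inhibitor against 10 h. Notch3 fell by 1.52 ± 0.23 at 8 h (adjusted p = 0.00858) and fell by 1.42 ± 0.23 at 10 h (0.00843), and its 8 h call ended without untreated replicate 2. With the inhibitor it was 0.75 ± 0.23 above 4OHT 10h (0.138, and 0.0173 with the replicate block). Notch2 (-0.90 ± 0.16), the ligand Jag1 (-0.86 ± 0.16) and Dll3, a ligand-like inhibitor of Notch (-0.77 ± 0.11), were also called lower at 8 h. The Notch2 and Jag1 calls ended under 4 and 5 of 17 alternatives. Notch1 differed by -0.42 ± 0.19 at 8 h and was not called. Dner, a Notch-binding protein of neurons, rose by 2.77 ± 0.36 at 10 h (adjusted p = 0.00449). The ligand Dll4 was not tested.

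Among 24 genes tested that process or modulate Notch, 1 rose and 4 fell at 8 h, 1 rose and 5 fell at 10 h, and 3 rose with the inhibitor against 10 h. Dtx1, a ubiquitin ligase that acts on Notch and is itself a Notch target, fell by 2.23 ± 0.09 at 8 h (adjusted p = 0.000232) and fell by 2.41 ± 0.09 at 10 h (0.000136). With the inhibitor it was 1.15 ± 0.09 above 4OHT 10h (0.00381) and still -1.27 ± 0.09 from untreated cells (0.00207). Mib2, which helps ligands enter the cell, fell by 0.91 and 1.17, and the glycosyltransferases Pofut1 and Rfng fell by 0.81 and 0.53 at 8 h, calls that ended under 3 and 4 of 17 alternatives. Lfng, the fringe enzyme that tunes which ligand Notch answers, differed from untreated by 0.14 ± 0.20 at 8 h and 0.50 ± 0.20 at 10 h, neither called (the latter at 0.0179 with the replicate block), and rose by 1.70 ± 0.20 with the inhibitor (adjusted p = 0.0111). The Lfng call ended under 4 of 17 alternatives. Numbl, a relative of the Notch inhibitor Numb, rose by 0.50 ± 0.08 with the inhibitor (0.0223), a call that ended under 9 of 17.

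In the nuclear complex 2 of 11 rose and 1 fell at 8 h, 3 rose and 1 fell at 10 h, and 0 were called with the inhibitor against 10 h. The coactivator Maml3 rose by 1.64 ± 0.30 at 8 h and 2.19 ± 0.30 at 10 h (adjusted p = 0.016 and 0.00523), from a level well above background on 1 of 2 untreated arrays, and normexp correction reduced these to 0.33 and 0.54. The 8 h call ended under 4 of 17 alternatives. Rbpj, the DNA-binding partner of Notch, rose by 0.61 ± 0.14 at 8 h (adjusted p = 0.0295, a call that ended under 8 of 17 alternatives).

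Of 9 other HES, HEY and related repressors tested, 1 rose and 2 fell at 8 h, 1 rose and 3 fell at 10 h, and 1 rose with the inhibitor against 10 h. Hes2, a less studied HES gene, differed by -1.20 ± 0.11 at 8 h (adjusted p = 0.00167), -1.15 ± 0.11 at 10 h (0.00156) and 1.62 ± 0.11 with the inhibitor (0.00208). Its replicate 2 spot was not well above background at 4OHT 8h and 4OHT 10h, and normexp correction gave -0.41, -0.35 and 0.63, all still called. Tle4, a Groucho corepressor that HES proteins recruit, rose by 1.16 ± 0.14 and 1.25 ± 0.14 with 4OHT (0.0039 and 0.00251).

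Of 15 other proneural bHLH factors 6 were tested, of which 2 fell at 8 h and at 10 h and 0 were called with the inhibitor. Neurod1, which acts downstream of NEUROG3, fell by 1.15 ± 0.25 at 8 h and 1.47 ± 0.25 at 10 h (adjusted p = 0.0259 and 0.00961), calls that ended under 5 and 1 of 17 alternatives. In the inhibitor group it was 0.23 ± 0.25 above 4OHT 10h (0.646) and -1.24 ± 0.25 from untreated cells (0.0276, ended under 5 of 17). Normexp correction reduced the 8 h difference to -0.43.

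Of 7 partners and inhibitors of bHLH factors tested, 1 rose and 1 fell at 8 h and at 10 h, and 1 rose and 2 fell with the inhibitor against 10 h. None of the E proteins, the partners, was among the calls, which all fell on ID genes, whose products bind E proteins and keep them off DNA. Id1 was at 2.75 and 3.06 in untreated cells, 5.56 and 5.32 at 4OHT 8h, 6.11 and 5.88 at 4OHT 10h, and 3.48 and 3.79 with PD0325901. The 4OHT arrays, on which Neurog3 was lowest, all lay above the other 4. The differences were 2.53 ± 0.17 at 8 h (adjusted p = 0.000805), 3.09 ± 0.17 at 10 h (0.000353) and -2.36 ± 0.17 with the inhibitor against 10 h (0.00267). Id4 fell by 1.53 ± 0.22 at 8 h (0.00722) and was -1.69 ± 0.22 from untreated cells with the inhibitor (0.00845). Id3 was -0.20 ± 0.13 at 8 h (0.334) and then fell by 2.69 ± 0.13 with the inhibitor (0.00127). Id2 went up with the inhibitor by 2.22 ± 0.33 (0.0211, a call that ended under 5 of 17 alternatives, among them leaving out either PD0325901 array), after -1.22 ± 0.33 at 8 h (0.0506, not called, and 0.0154 with the replicate block).

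**Figure D4:**
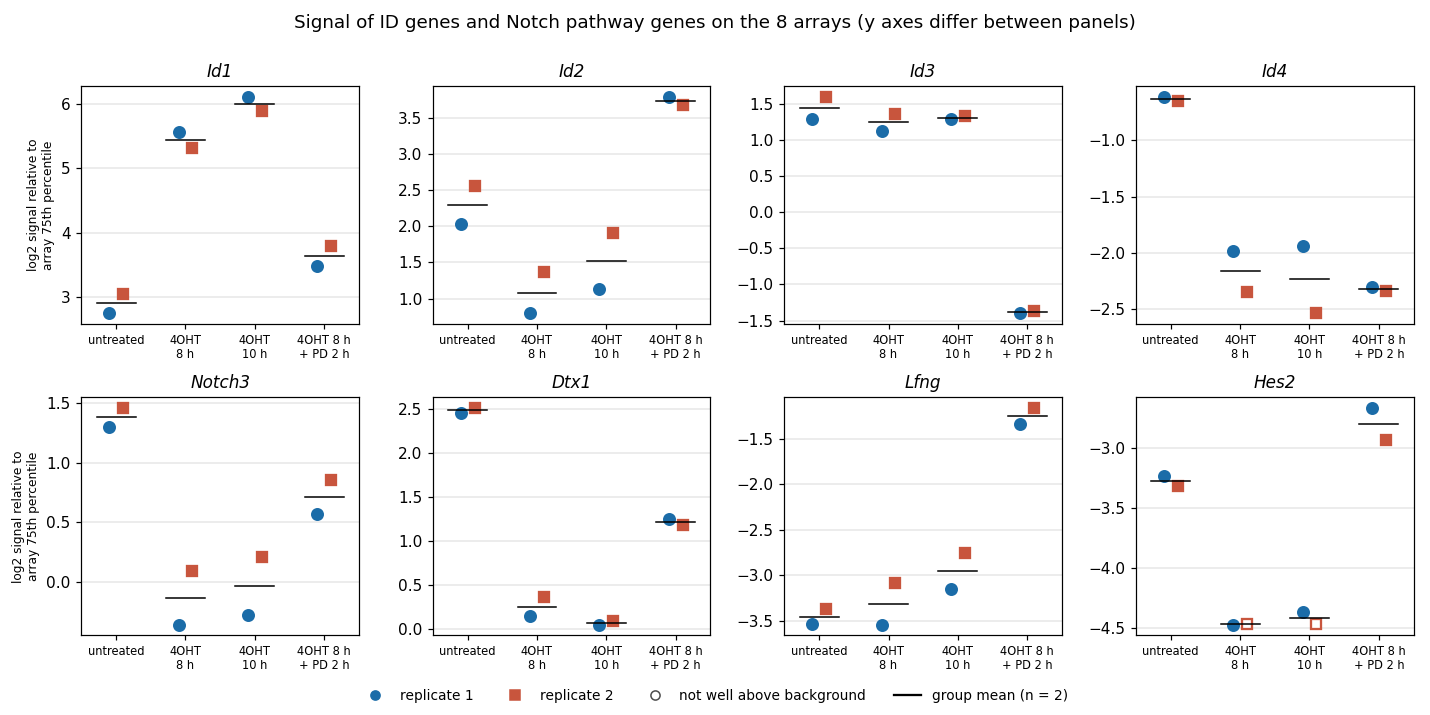
Level of the 4 ID genes and of Notch3, Dtx1, Lfng and Hes2, which were chosen after their values were seen (log2 of the signal relative to the array's 75th percentile), on each array of the 4 groups, with symbols as for the members. Id1 lies between 5.32 and 6.11 on the 4OHT arrays and between 2.75 and 3.79 on the others.

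Of 10 genes tested that lie downstream of proneural factors, 1 rose and 2 fell at 8 h, 0 rose and 2 fell at 10 h, and 1 rose with the inhibitor against 10 h. Rcor2, a corepressor subunit, fell by 0.63 ± 0.09 and 0.80 ± 0.09 with 4OHT (adjusted p = 0.00788 and 0.00294). Srrm4, a splicing factor of neurons, rose by 1.58 ± 0.31 with the inhibitor (0.045, a call that ended under 9 of 17 alternatives).

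Of 27 other neural progenitor genes tested, 8 rose and 4 fell at 8 h, 9 rose and 5 fell at 10 h, and 0 rose and 5 fell with the inhibitor against 10 h. Pou3f1, a POU factor of early neural and epiblast cells, rose by 3.30 ± 0.19 at 8 h (adjusted p = 0.000485) and fell by 1.73 ± 0.19 with the inhibitor (0.00874, ended under 3 of 17 alternatives). Otx2, a head organising factor, rose by 0.86 ± 0.18 (0.0221) and fell by 2.34 ± 0.18 (0.00303). Vim, which encodes vimentin, the usual filament partner of nestin, rose by 0.72 ± 0.07 at 8 h (0.0021) and was -0.18 ± 0.07 with the inhibitor (0.212). Ncam1, a neural adhesion molecule, fell by 1.31 ± 0.15 at 8 h (0.00391) and was -0.07 ± 0.15 with the inhibitor (0.847). Sox2 changed with the inhibitor, by -0.83 ± 0.08 (0.00697, ended under 1 of 17), and was 0.28 ± 0.08 at 8 h (0.07).

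Of 15 other neuronal genes tested, 1 rose and 2 fell at 8 h, 3 rose and 2 fell at 10 h, and 0 were called with the inhibitor against 10 h. Nefm, a neurofilament subunit, rose by 3.81 ± 0.23 at 8 h (adjusted p = 0.000555) and 3.84 ± 0.23 at 10 h (0.000407) while Tubb3 fell, and was -0.28 ± 0.23 with the inhibitor (0.543). Dpysl3 and Stmn1, which act on microtubules, fell by 1.36 ± 0.31 and 0.51 ± 0.12 at 8 h (0.0316 and 0.0338), calls that ended under 8 and 10 of 17 alternatives.

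Among 13 other tubulin genes 1 rose and 2 fell at 8 h, 4 rose and 4 fell at 10 h, and 2 rose with the inhibitor against 10 h. The neural isotypes Tubb2a and Tubb2b fell by 0.93 ± 0.14 and 0.65 ± 0.08 at 8 h (adjusted p = 0.00802 and 0.0043), and Tubb6 rose by 0.66 ± 0.09 (0.0071). With the inhibitor Tubb2b was 0.40 ± 0.08 above 4OHT 10h (0.0459, a call that ended under 12 of 17 alternatives) and Tubb2a 0.28 ± 0.14 (0.313). Tubulin genes are close in sequence, so a probe may read more than its own isotype.

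**Figure D5:**
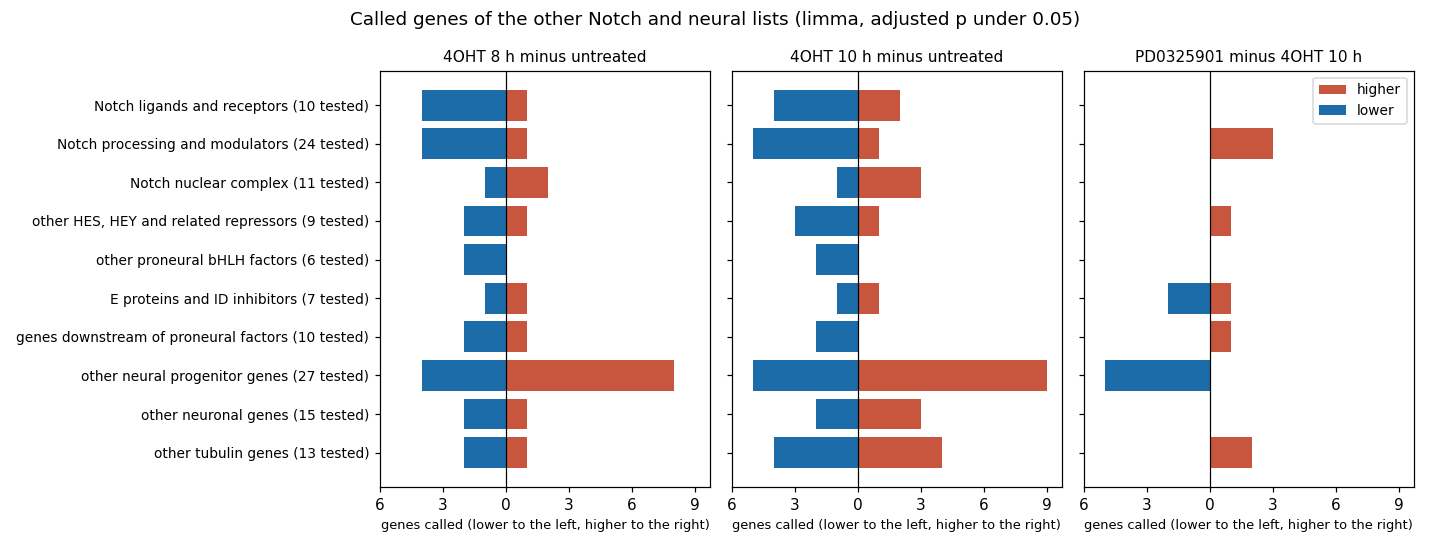
Number of genes called higher (right) and lower (left) in each of the 10 other lists for 4OHT 8h minus untreated, 4OHT 10h minus untreated and PD0325901 after 4OHT minus 4OHT 10h, with the number tested after each list name. The neural progenitor list, the longest with 27 tested, shows 8 higher and 4 lower at 8 h (44.4% of those tested), and the ligands and receptors 1 higher and 4 lower (50%).

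Markers of other cell types were read beside these results. Of 10 fibroblast markers, 4 to 8 were well above background on an array, and their summed linear signal relative to the 75th percentile was 2.87 to 3.76 in untreated cells, 18.7 to 41.9 with 4OHT and 14.3 to 25.8 with PD0325901. Thy1 carried most of that sum, its mean log2 level being 1.17 without treatment, 4.66 after 8 h and 4.79 after 10 h of 4OHT, and 4.19 with PD0325901, and Twist1 also rose, by 3.13 ± 0.23 at 8 h. Col1a1 and Pdgfrb were called lower at 10 h, by -0.59 ± 0.11 and -2.33 ± 0.63 (limma adjusted p = 0.0126 and 0.0417), the median of the 6 tested was -0.50 there, and Lum was well above background on no array. The 8 neural crest markers summed to 4.97 to 5.16 in untreated cells, 6.99 to 8.42 with 4OHT and 2.74 to 2.80 with PD0325901. Foxd3 carried most of that sum, at mean log2 levels of 2.01, 2.83, 2.69 and 0.68 in the 4 groups, while Snai2 fell by 1.98 ± 0.25 at 8 h (0.00467). The 10 presomitic mesoderm markers summed to 3.10 to 3.55 over all arrays, but of 9 tested 3 rose and 2 fell at 8 h and 4 rose and 2 fell at 10 h. Brachyury (T), Mesp1 and Mesp2 rose by 3.59 ± 0.25, 2.49 ± 0.50 and 1.19 ± 0.14 at 8 h (0.00083, 0.0204 and 0.00391). With the inhibitor against 10 h, Mesp1 and Mesp2 fell by 2.88 ± 0.50 and 0.81 ± 0.14 (0.0321 and 0.0325), and T differed by -1.03 ± 0.25 (0.0795, not called). T was well above background on 1 of 2 untreated arrays and Mesp1 on 1 of 2 PD0325901 arrays, so the sizes measured from these are uncertain. Dll3 and Lfng stand in this list and in the Notch lists. The 10 primitive endoderm markers summed to 92.1 to 125.6 on replicate 1 and 60.5 to 75.6 on replicate 2, higher on replicate 1 in all groups. Lama1 and Lamb1 carried most of that sum, at log2 levels of 4.71 to 6.38 and 4.62 to 5.29. Hes1 and Hes5 were also higher on replicate 1 in all groups, while Neurog3 and Dll1 were lower there. The part of these cells or replicates in the results was not tested.

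The genes most like each member were taken as the highest Pearson r over the 8 arrays, among about 2645 named genes whose group means spanned at least 1 on the log2 scale. The 8 points share their arrays and the 4 groups, so r mainly describes the order of the groups. For Neurog3 these were Sall3 (r = 0.996), Bmf (0.995) and Lrp4 (0.994), and 85 genes had r above 0.95. For Tubb3 they were Fgf4 (0.996), Spic (0.995) and Sesn1 (0.995), and 140 had r above 0.95. For Dll1 they were Bbc3 (0.991), Pgm2l1 (0.988) and Nr2c1 (0.984), for Hes5 Sema4a (0.990), Klf4 (0.982) and Mip (0.979), and for Nes Cxcl14 (0.995), Emilin2 (0.994) and Fosl2 (0.994). Dll1, Hes5 and Nes had 17, 35 and 233 genes above 0.95. Hes1 (Dnajc6, 0.983) and Hey1 (Ggt6, 0.982) had 8 and 16, and Hes6 had none (Cyp2d9, 0.940). The group means of Hes1, Hey1 and Hes6 spanned less than 1, so these members were matched only with genes of a wider span. Their counts therefore cannot be set against those of the other members.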

How the data were processed

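Total RNA (100 ng, per the labels) was hybridised to 8 arrays. The deposited processed signals are intensities from Agilent's Feature Extraction software, version 11.0.1.1 per the file headers, which had removed background and spatial trends; arrays were not yet scaled to each other. The authors' deposited values for each array hold the same intensity, linear and not centred, with array medians of 18.1 to 25.1. The labels name Cy5 and the files a green channel, which changes no direction. Symbols came from RefSeq accessions (GRCm38.p6), for 27656 of 55681 probes (49.7%).

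Control spots and outlier spots were left out, spots of a probe averaged, and log2 of the signal minus each array's 75th percentile computed in R 4.3.3 with limma 3.58.1. A probe was kept if some group had it well above background on each of its 2 arrays (30336 were), and a gene took its kept probe with the highest mean. A mean per group was fitted to 8 arrays (residual degrees of freedom 4), two-sided, with Benjamini-Hochberg adjustment over 22693 genes and features at 0.05. The fit was tested on simulated data. The array number limits the precision.

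The members, lists, naming rule (every member, up to 4 called genes per list and main comparison, 3 most alike genes) and tests were chosen with earlier results of these data known. Same-numbered arrays deviated together (correlations 0.29 to 0.36 in 6 pairs of groups). The numbers, which match the slide's rows, were therefore taken to pair the arrays in the replicate block and in differences within a replicate. The main fit, which gave the calls and standard errors, held no term for the replicate. Groups lie in slide columns of their own, so column and group cannot be told apart. Promoters were searched with Python 3.11.15 and pandas 2.3.3, and figures drawn with matplotlib 3.10.9. Some genes of the lists are not reported here.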

Additional observations from a re-analysis of the deposited data

How the results depend on the processing

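Median centring, quantile normalization, normexp (offset 50), no filter on dim probes, averaging all probes of a gene, fitting only the groups compared, a trended robust prior, the deposited value table, the replicate block and leaving out each array were tried, 17 alternatives for each gene. Members called for PD0325901 against untreated became 2 with median centring, normexp or the trended prior and 4 with the replicate block. Over all genes and features those calls were 3594 in the main fit and 2786, 4179, 4422 and 6283 in that order. Against 4OHT 8h, 5 members were called with normexp and with the block, where all calls went from 1479 to 1785 and 3184. Against 4OHT 10h, 1 was called with only the groups compared, where all calls went from 1389 to 328. At 8 h, 3 were called without the filter, where all calls went from 4932 to 2303. Other pathway genes called at 8 h, at 10 h and for PD0325901 against 10 h, 8 h and untreated were 22, 30, 8, 8 and 15 without the filter. All genes and features called were then 2303, 3306, 333, 358 and 1069. With only the groups compared, pathway genes called at 8 h and for PD0325901 against 10 h, 8 h and untreated were 25, 7, 9 and 21. All calls were then 2767, 328, 328 and 1413. With the replicate block both PD0325901 counts of pathway genes against 4OHT were 35, where all calls were 2821 against 10 h and 3184 against 8 h. The cause was not tested, except that these fits hold more features, fewer arrays or another term.

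Leaving out 1 array gave 3 to 5 members called at 8 h and at 10 h, 2 to 3 for PD0325901 against 10 h or 8 h and 1 to 1 against untreated. Other pathway genes called were 23 to 36, 28 to 47, 7 to 14, 8 to 17 and 15 to 33 in the same order. All genes and features called were 2269 to 4269, 3170 to 5866, 371 to 959, 391 to 1063 and 1192 to 2649. Sign turned only for differences that were not called. Under median centring these were Hes6 at 10 h (0.027) and with PD0325901 against 10 h (-0.071), Hes5 for PD0325901 against untreated (0.10) and Id3 at 10 h (0.049). Quantile normalization gave 0.11 and normexp 0.13 for Hes5 against untreated. Leaving out 1 array gave, for PD0325901 against 10 h, -0.073 to 0.084 for Hes6, -0.42 to 0.10 for Hes1, -0.39 to 0.22 for Id4 and -0.032 to 0.50 for Notch1. It gave -0.47 to 0.037 for Hes1 against 8 h, -0.26 to 0.24 for Hes5 against untreated, -0.29 to 0.012 for Id3 at 10 h and -0.087 to 0.37 for Lfng at 8 h. Between 10 h and 8 h it gave -0.15 to 0.27 for Neurog3, -0.32 to 0.21 for Hes1, -0.072 to 0.20 for Hey1 and -0.020 to 0.16 for Tubb3. Beyond the calls given beside the results, the block changed no member's or named pathway gene's call but those of Id2 at 10 h and Dll3 for PD0325901 against 10 h, both then called (limma adjusted p = 0.0466 and 0.0487). Signal limits Neurog2 and Hes5, which were near background.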
